A study of Rattus norvegicus with 3 samples.

Results

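Cells that the authors labelled vSMC/PC, for vascular smooth muscle cells and pericytes, made up 452 of the 13226 annotated cells of a stromal single-cell library from rat thymus (3.42%, 95% interval 3.11 to 3.74). The members were all cells whose deposited label was vSMC/PC, and in each of them that label came from the authors' initial cluster, since 0 carried a label projected from another dataset. The animals were Lewis rats, of an inbred strain, aged 8 weeks and with no stated treatment or genetic change, and their number is not given in the sources used here. The stroma was released with the enzymes Liberase TH and DNase I, and cells lacking CD45, a protein of blood-derived cells, were enriched magnetically and by flow sorting. A second library of thymocytes, the T cell precursors, and 1 Stereo-seq section, which maps RNA on a tissue slice, came from the same strain and age. Each group was 1 sample, so no test was possible and every comparison below describes this library or this section. Levels are CPM, the unique molecular identifiers (UMIs, each standing for 1 captured RNA molecule) of a gene per 1000000 UMIs of the cells summed, and all intervals are 95% intervals for counting error only.

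Mural cells wrap the outside of blood vessels. Vascular smooth muscle cells form rings around arteries and veins and contract through smooth muscle actin and myosin, under the control of calcium, nerves and circulating hormones. Pericytes sit on capillaries inside the basement membrane that they share with the endothelium, which recruits them through PDGF-B acting on the receptor PDGFRB and holds them through Notch signals received by NOTCH3. In the thymus the vessels of the medulla and of its border with the cortex carry precursor cells in and mature T cells out, and the mesenchyme around those vessels is a source of chemokines.

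Of the 4 marker genes given for the label, Acta2 and Myh11, which encode the actin and the myosin heavy chain of smooth muscle, were at 1266 CPM (1228 to 1305) and 998 CPM (964 to 1032). Both were highest in vSMC/PC among the 18 labels with at least 50 cells. For Acta2 the next label was TEC:mTEC1, a medullary epithelial label, at 751 CPM, and for Myh11 it was EC:aEC, arterial endothelium, at 99.9 CPM. Rgs5, a regulator of G protein signals long used as a pericyte marker, was also highest in vSMC/PC, at 895 CPM (863 to 927) against 97.9 CPM in TMC4, the next label. Ccl19, a chemokine for CCR7-bearing cells, did not peak there: vSMC/PC stood second at 8828 CPM (8728 to 8929), below TMC4 at 13615 CPM. The label came from clustering of the same cells, so these levels describe it and are no independent evidence for it. Reads of actin genes can be hard to assign, because their coding sequences are nearly identical, and how such reads were counted is not given in the sources used here.

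The promoters of Acta2 and Rgs5 are shown because these 2 genes are markers of the label, one contractile and one of the pericyte list. The sequences are the 250 bases before the gene start in RefSeq, build GRCr8, and capitals mark CArG-like boxes. The CArG box (CC, then 6 A or T letters, then GG) is the site bound by serum response factor, the regulator of contractile genes, and a CArG-like box has 1 C or G among the inner letters. Acta2 lies on the minus strand, at chr1:241172504-241172753, and its boxes start 134 and 84 bases before the gene start. Rgs5 lies on the plus strand, at chr13:84380827-84381076, and has 0 boxes in this window.
Acta2: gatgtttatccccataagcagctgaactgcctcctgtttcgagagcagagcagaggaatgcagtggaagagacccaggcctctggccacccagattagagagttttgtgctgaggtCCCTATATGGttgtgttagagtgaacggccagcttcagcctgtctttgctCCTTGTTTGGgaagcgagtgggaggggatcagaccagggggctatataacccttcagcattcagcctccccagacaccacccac
Rgs5: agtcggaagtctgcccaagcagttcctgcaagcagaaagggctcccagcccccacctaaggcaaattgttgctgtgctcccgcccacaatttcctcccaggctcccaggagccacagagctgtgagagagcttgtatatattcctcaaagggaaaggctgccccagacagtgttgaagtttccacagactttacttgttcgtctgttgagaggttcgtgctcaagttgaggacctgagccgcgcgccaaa
Over windows of 300 bases read on both strands, 1.64% of 27457 promoters held a CArG box and 9.27% held either kind. None of the 15 contractile and 15 pericyte genes with a promoter entry held the strict box. Either kind was found in 1 of 15 contractile genes, Acta2, and in 2 of 15 pericyte genes, Gja4 and Tbx18. A match is a description of letters and shows no binding.

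**Figure D1:**
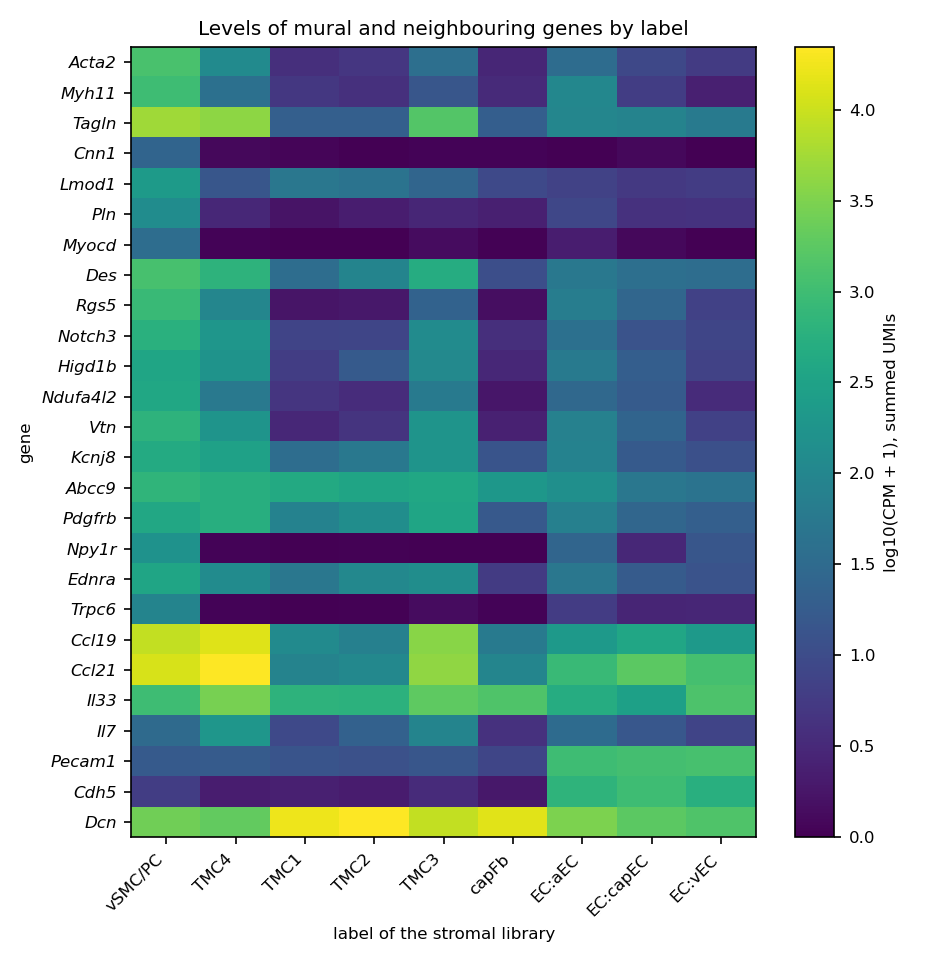
Level of 26 genes (rows) in 9 labels (columns) as log10 of CPM + 1, from summed UMIs of each label in the stromal library, to be read along rows. Brighter colours are higher levels. Acta2, Myh11 and Rgs5 were brightest in vSMC/PC, while Ccl19 was at 8828 CPM there and at 13615 CPM in TMC4.

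Leading genes were those with the largest ratio to the next label, where every other label was set at no less than 3 UMIs. Pmfbp1 was at 126 CPM, 33.7-fold above EC:aEC at 3.75 CPM, and had a UMI in 37.8% of the cells and in 0% of cells labelled capFb, a label high in fibroblast genes with few UMIs of mural markers. Phospholamban (Pln), the brake on the calcium pump of the sarcoplasmic reticulum, was at 130 CPM and 17.4-fold above the next label. Trpc6, a cation channel of vascular muscle, was at 91.6 CPM. Itih3, Hrc, Fhl5, Myh11, Prph, Rgs5, Scn3a, Itga7 and Pcp4l1 completed the 12 leading genes, with leads of 7.36- to 22.7-fold. EC:aEC was the next label for all of the 12 except Prph, where it was TMC1, and Rgs5, where it was TMC4. It held only 90 cells, and its 3.75 CPM for both Pmfbp1 and Itih3 was at or near the floor. Leads over EC:aEC at a few CPM thus rest on very few UMIs. These genes helped to make the authors' clusters, so their leads are a description and no evidence for the label.

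The label summed to 3372574 of the 131624350 UMIs of annotated stromal cells. Its cells had a median of 6446 UMIs (831 to 30219), against 8717 in the 1249 TMC4 cells, 7187.5 in the 1070 cells of 3 endothelial labels and 11379 in the 1358 capFb cells. Of the barcodes, 38 occurred in both libraries, and 0 of these were vSMC/PC. Epithelial, B cell, myeloid, red cell, glial, mesothelial and skeletal muscle lists were each summed at 1.19 to 72.3 CPM, with Sox10, Cd68, Adgre1, Myod1 and Myog at 0, and 10 thymocyte genes summed to 21.6 CPM against 7064 CPM in the Thymocyte label. The 15 endothelial genes, all detected, summed to 235 CPM, against 60.8 in TMC4, 210 in capFb and 9288 in the endothelial labels. Most of the sum in vSMC/PC came from 1 of these genes, Esam, described below. The 14 fibroblast genes summed to 9472 CPM, most of it from the Smpd3-led cluster described below. That sum was 7633 in TMC4, 6885 in the endothelial labels, 15272 in the Thymocyte label and 69132 in capFb. The 18 genes of the immediate-early and heat-shock list respond to stress and to dissociation and are called immediate-early genes below. They summed to 10405 CPM (4714 in TMC4, 12886 in the endothelial labels). The part of all these lists in the results below was not tested.

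Against TMC4, the mesenchymal label closest in its levels of Rgs5 and Ccl19, vSMC/PC held more contractile RNA. Of 20 contractile genes, 14 were at least 2-fold higher and 0 lower, where 7.24% of all 11836 genes compared were higher and 10.3% lower. Their median log2 ratio was 2.42, against -0.06 over all genes. Myh11 was at 998 CPM against 38.9 CPM (25.6-fold, 23.2 to 28.3), and Acta2 at 1266 against 119 CPM (10.6-fold, 9.99 to 11.3). Some genes were near the limit of detection in TMC4: Myocd, the coactivator of serum response factor, was at 34.99 CPM against 1 UMI in TMC4, a ratio of 404 with a counting interval of 71.2 to 16103. Cnn1, calponin, was at 24.0 CPM against 3 UMIs (ratio 92.5, 30.6 to 458).

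Contraction also draws on calcium stores, for which the contractile list held Pln and Casq2. Pln was at 130 CPM against 2.08 CPM in TMC4 (62.8-fold, 41.7 to 99.1), and Casq2, which binds calcium inside the store, was at 48.6 CPM against 1 UMI (ratio 562, 99.5 to 22328). Not every muscle protein separated the labels. Desmin (Des) was at 1219 against 644 CPM, caldesmon (Cald1) at 2114 against 1259 CPM, and transgelin (Tagln) at 5342 against 4114 CPM, all under 2-fold. Myosin light chain kinase (Mylk) was at 484 against 401 CPM, and Synpo2, an actin-bundling protein, was lower in vSMC/PC at 337 against 480 CPM.

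Pericyte genes were split. Among 21 of them, 12 were at least 2-fold higher than in TMC4 and 1 was lower, with a median log2 ratio of 1.16. Rgs5 was 9.14-fold higher (8.54 to 9.80), Mcam, an adhesion molecule of mural cells, was at 240 against 26.8 CPM, and Cspg4, the NG2 proteoglycan, was at 68.8 against 9.95 CPM. Notch3 was at 582 against 190 CPM (3.06-fold, 2.88 to 3.25). The potassium channel pair Kcnj8 and Abcc9, which couples pericyte tone to metabolism, was close between the labels: Kcnj8 was at 451 against 305 CPM and Abcc9 at 686 against 524 CPM. Pdgfrb was slightly lower in vSMC/PC, at 402 against 534 CPM, and the peptidase gene Enpep was the 1 gene past 2-fold in the lower direction, at 71.2 against 205 CPM.

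Receptors for vasoactive signals made a further difference. Of 12 tone receptors compared, 7 were higher and 0 lower, with a median log2 ratio of 1.39. Npy1r, the receptor through which sympathetic neuropeptide Y constricts vessels, was at 163 CPM against 1 UMI in all TMC4 cells (ratio 1881, 336 to 74432). After thinning each cell to 2000 UMIs, 25.97% of vSMC/PC cells had an Npy1r UMI against 0% of TMC4 and of capFb cells, and the unthinned shares were 44.0%, 0.0801% and 0%. The endothelin receptors Ednra and Ednrb were at 358 against 126 CPM and at 247 against 49.1 CPM. Agtr1a, for angiotensin, was at 139 against 48.2 CPM, and the alpha-1 adrenergic receptor gene Adra1d was at 11.6 CPM against 0 UMIs, at least 44.5-fold higher.

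Effectors downstream of these receptors followed: 7 of 17 channel and kinase genes were higher and 0 lower. Trpc6 had 1 UMI in TMC4 (ratio 1059, 189 to 41952). Cyclic GMP relaxes muscle in answer to nitric oxide. Gucy1b1, a subunit of the enzyme that makes it, was at 296 against 123 CPM and belongs to the receptor list counted above. Prkg1, the kinase of cyclic GMP, was at 1233 against 453 CPM and Pde3a, a phosphodiesterase, at 961 against 380 CPM. Cacna1c, the pore of the L-type calcium channel, was an exception at 445 against 618 CPM.

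Chemokines and niche factors went mostly the other way: 10 of 29 were lower than in TMC4 and 2 were higher, with a median log2 ratio of -0.62. Il7, a survival factor for lymphocytes, was at 30.8 against 193 CPM, Enpp2, which makes lysophosphatidic acid, at 208 against 848 CPM, Il33 at 999 against 2872 CPM and Vcam1 at 191 against 442 CPM. Ccl19 and Ccl21 were lower by less than 2-fold, Ccl19 by 1.54-fold (1.52 to 1.56) and Ccl21 at 11881 against 22085 CPM. The 2 genes that were higher were Cxcl1 at 103 against 11.4 CPM and Cxcl13 at 39.1 against 12.6 CPM, both of which attract cells through CXC receptors. Spns2, the exporter of sphingosine phosphate that guides T cell exit, was at 22.8 against 61.4 CPM, and of 10 genes of that pathway 0 were higher and 3 lower (median log2 ratio -0.69).

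Genes by which mural cells and endothelium signal to each other were mixed. In the Notch list 6 of 13 genes were higher and 1 was lower (median log2 ratio 0.96). The targets Nrarp, at 112 against 2.42 CPM, and Hey1, at 54.6 against 6.84 CPM, and the ligand Jag1, at 172 against 44.1 CPM, were among the higher ones, and the endothelial ligand Dll4 was the lower one at 2.08 against 17.0 CPM. Of 23 genes for vessel recruitment, 10 were higher and 4 lower. Angpt2, a ligand of the endothelial receptor TIE2, was highest in vSMC/PC of all labels at 185 CPM (4.50 in TMC4), its rival ligand Angpt1 was at 117 against 24.4 CPM, and Pdgfa was at 270 against 33.7 CPM.

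Matrix genes were also mixed, with 11 of 35 higher and 4 lower (median log2 ratio 0.35). Timp3, an inhibitor of metalloproteinases, was at 744 against 29.4 CPM, and Itga7, a laminin receptor of muscle, was at 119 against 11.9 CPM. Mfge8, a secreted protein of vessel walls, was at 1292 against 3843 CPM. Among 27 mural transcription factors, 8 were higher and 1 lower, with Mef2c at 412 against 50.9 CPM, Tbx2 at 91.0 against 20.2 CPM and Gata6, the lower one, at 21.6 against 55.5 CPM. Immediate-early genes were higher for 10 of 18 and lower for 1, with Fos at 2343 against 348 CPM.

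Outside the lists, and with TMC4 set at no less than 3 UMIs, the widest gaps to TMC4 were those of Sncg, a synuclein, at 674 against 1.04 CPM (649-fold, 371 to 1258), and the sodium channel gene Scn3a at 153 against 0.346 CPM (443-fold, 172 to 1632). In the other direction stood several adhesion genes, with Cdh4 at 12.5 against 188 CPM (15.1-fold lower) and Ncam2 at 16.6 against 230 CPM (13.8-fold lower, 10.6 to 18.4). Of 8 genes chosen from earlier results of these data as TMC4 genes, 6 were lower and 0 higher.

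Against the pooled endothelial labels EC:aEC, EC:capEC and EC:vEC, the neighbours on the other side of the basement membrane, most listed mural genes were higher and the endothelial genes lower. Of 11705 genes compared, 12.5% were at least 2-fold higher in vSMC/PC and 14.2% lower, with a median log2 ratio of 0.03. Contractile genes were higher for 18 of 20 (median log2 ratio 5.48), pericyte genes for 17 of 20 (4.11), and channels and kinases for 13 of 18 (3.57), with 0 lower in each list. All 15 endothelial genes were lower, with a median log2 ratio of -6.79. Cdh5, the cadherin of endothelial junctions, was at 5.04 against 781 CPM, and Pecam1 at 16.0 against 1138 CPM.

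Acta2 was at 8.91 CPM in endothelium (142-fold, 114 to 180), and Myh11 at 12.2 CPM (81.9-fold, 67.6 to 100). Notch3 was 47.3-fold and Pdgfrb 14.2-fold higher in vSMC/PC. The partner genes lay in the endothelium: Dll4 was at 84.2 CPM there against 2.08 CPM, Pdgfb at 67.0 against 4.74 CPM, and Tek, which encodes TIE2, at 333 against 10.1 CPM. The receptors Notch3 and Pdgfrb and their ligands Dll4 and Pdgfb were thus higher on opposite sides. Esam, an adhesion molecule usually counted as endothelial, was the least separated of the 15 endothelial genes, at 148 CPM in vSMC/PC, 357 CPM in endothelium and 1.12 CPM in TMC4.

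Several chemokines also divided the vessel wall, with 14 of 29 higher in vSMC/PC and 4 lower. Ccl19 was at 296 CPM in endothelium (29.8-fold lower there), a log2 ratio of 4.90 that was 2.44 without the Clu-led cluster described below. Ccl21 was at 1463 against 11881 CPM in vSMC/PC, and without that cluster its log2 ratio of 3.02 became -0.76. Ccl2, a chemokine for monocytes, was at 49.6 CPM in endothelium against 989 CPM. Cxcl12, which retains precursors, was instead lower in vSMC/PC, at 440 against 2111 CPM. The endothelin receptors differed: Ednra was 19.9-fold higher in vSMC/PC, while Ednrb was at 247 against 189 CPM, within 2-fold. For sphingosine phosphate, S1pr1 was at 10.4 against 248 CPM and S1pr3 at 29.1 against 2.14 CPM.

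Beyond the lists, Pmfbp1, Hrc, Itih3, Cryab and Stum were 71.3- to 102-fold higher than in endothelium. Btnl9 was at 1 UMI in vSMC/PC against 363 CPM (ratio 1224, 220 to 48357), and Gpihbp1, which anchors lipoprotein lipase on capillaries, was at 4.15 against 1068 CPM (257-fold lower, 153 to 471).

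Clustering the 452 cells on variable genes, with every listed gene removed first, gave 6 clusters. The names were given here and are not the authors', so another division of these cells is possible, and the levels of listed genes by cluster are a description of the same cells. One cluster of 54 cells (11.9%, 9.10 to 15.3) was highest in 7 of 10 smooth muscle markers and is called smooth-muscle-like. Another, of 135 cells (29.9%, 25.7 to 34.3), was highest in 6 of 10 pericyte markers and is called pericyte-like. The others are named by a leading gene: Clu (114 cells), Kcnab1 (58), Ncam1 (49) and Smpd3 (42). The 10 smooth muscle markers are all in the contractile list, and the 10 pericyte markers are all in the pericyte list. Differences in those lists between the smooth-muscle-like and pericyte-like clusters were thus partly set by the naming. Median depth ran from 3827 UMIs in the Kcnab1-led to 13219 in the Smpd3-led cluster, with 6333 in the smooth-muscle-like and 5027 in the pericyte-like cells, and its part in the clusters was not tested.

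Cells lay along a range. All 54 smooth-muscle-like cells had more UMIs of the 20 contractile genes than of the 21 pericyte genes, as did 24 of 135 pericyte-like cells and 274 of the 452 cells in all. Per cell, contractile genes summed to 15796 to 64778 CPM (median 36365) in the smooth-muscle-like cluster and to 2269 to 43478 CPM (median 8261) in the pericyte-like cluster. The clusters overlapped: 128 of the 135 pericyte-like cells lay below the lowest smooth-muscle-like cell, but only 17 of the 54 smooth-muscle-like cells lay above the highest pericyte-like cell. Pericyte genes summed to 2867 to 16711 CPM (median 7664) and to 4938 to 35880 CPM (median 15152) in the same order. For TMC4 the medians were 6745 CPM for contractile and 4523 CPM for pericyte genes.

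**Figure D2:**
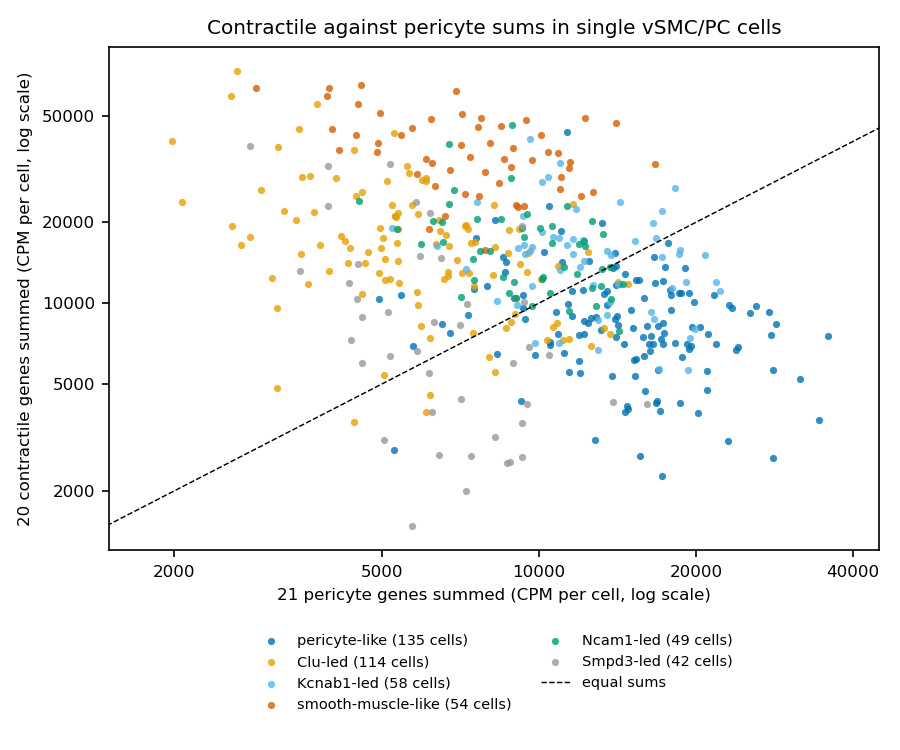
Each point is 1 of the 452 vSMC/PC cells, placed by its summed CPM of 21 pericyte genes and of 20 contractile genes on log axes and coloured by cluster, with a dashed line where both sums are equal. The 54 smooth-muscle-like cells all lie on the contractile side of the line, and 111 of the 135 pericyte-like cells do not.

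Smooth-muscle-like cells were set against pericyte-like cells in summed UMIs. Of 20 listed contractile genes 17 could be compared, of which 14 were higher and 1 lower, where 7.76% of 4202 genes were higher and 16.4% lower. The list includes the markers that named the cluster, so this count is a description and no evidence for the name. Their median log2 ratio was 2.69, against -0.14 for all genes. Myh11 was at 4981 against 139 CPM (35.7-fold, 29.3 to 44.0), and its per-cell median was 3376 CPM, with 1 of 54 cells at 0, against a median of 0 CPM with 96 of 135 cells at 0. Acta2 was at 4532 against 381 CPM (11.9-fold, 10.5 to 13.5). Cnn1 was found at 137 CPM against 0 UMIs, at least 33.9-fold higher.

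Pln and Casq2 of the calcium store and the coactivator gene Myocd were also higher. Pln was at 718 against 37.9 CPM (19.0-fold, 12.8 to 29.1), Casq2 at 255 against 9.47 CPM (27.0-fold, 12.6 to 68.96), and Myocd at 199 CPM against 3 UMIs (ratio 49.1, 16.1 to 244). Desmin and caldesmon did not divide them: Des was at 1266 against 1466 CPM and Cald1 at 2410 against 2175 CPM. Synpo2 was the 1 contractile gene lower in smooth-muscle-like cells, at 185 against 442 CPM.

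Pericyte genes, which include the naming markers of the pericyte-like cluster, held fewer sharp contrasts. Of 20 compared, 9 were lower in the smooth-muscle-like cluster and 2 higher (median log2 ratio -0.87). The channel pair led: Kcnj8 was at 19.6 against 808 CPM (41.1-fold lower, 19.8 to 103), with 50 of 54 smooth-muscle-like cells at 0, and Abcc9 at 89.8 against 1354 CPM (15.1-fold lower, 10.6 to 22.2). Higd1b, a mitochondrial protein common in lung and brain pericytes, was at 25.3 against 651 CPM. Vtn, vitronectin, was at 283 against 1223 CPM (4.32-fold lower) and Pdgfrb at 236 against 637 CPM. Widely used pericyte names did not follow: Rgs5 was at 777 against 1400 CPM (1.80-fold lower, 1.58 to 2.06), Notch3 at 971 against 768 CPM, Ndufa4l2 at 679 against 590 CPM, and Cspg4 was higher in smooth-muscle-like cells at 244 against 89.3 CPM. Rgs5 was highest in the Kcnab1-led cluster, at 2548 CPM, and where that cluster, whole or for 55 of its 58 cells, was merged with the smooth-muscle-like one its log2 ratio turned from -0.85 to 0.11 (resolution 0.25) and to 0.017 (30 components).

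Of the 7 vasoactive receptors compared, 4 were lower in smooth-muscle-like cells and 0 higher, where 16.4% of all genes were lower and 7.76% higher. Ednrb was at 28.1 against 758 CPM (27.0-fold lower, 14.6 to 56.6), Ednra at 325 against 722 CPM, Agtr1a at 50.5 against 331 CPM and Adra2a at 16.8 against 160 CPM. Npy1r was within 2-fold, at 295 against 211 CPM. Of 15 channels and kinases 2 were higher and 4 lower: Atp2a2, the calcium pump that Pln restrains, was at 612 against 207 CPM, Rock1, a kinase that sustains contraction, at 940 against 398 CPM, and Ano1, a chloride channel, was lower at 107 against 353 CPM. Some listed genes had fewer than 50 UMIs over both clusters and are not in these counts. Among them P2rx1, an ATP-gated channel of the receptor list, went the other way, at 56.1 CPM in smooth-muscle-like cells against 1 UMI. The potassium channel genes Kcnma1 and Kcna5 were at 75.8 and 64.5 CPM there, against 1 and 0 UMIs.

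Chemokines and niche factors were lower in smooth-muscle-like cells. Of 18 compared 0 were higher and 14 were lower, with a median log2 ratio of -2.64. Ccl19 was at 64.5 against 3524 CPM (54.6-fold lower, 36.3 to 86.3), Ccl2 at 61.7 against 2041 CPM (33.1-fold lower, 21.8 to 52.9) and Ccl21 at 101 against 1541 CPM (15.3-fold lower). Thinned to 2000 UMIs, 7.69% of smooth-muscle-like cells (2.14 to 18.5) had a Ccl19 UMI, against 9.80% of capFb cells and 68.2% of pericyte-like cells. Whether the UMIs in smooth-muscle-like cells were background was not tested. The unthinned shares were 33.3%, 35.9% and 78.5%, and thinning left out 2, 1 and 6 shallower cells. Where the smooth-muscle-like cells were merged with the Kcnab1-led ones, at a resolution of 0.25, the log2 difference was -3.05 for Ccl19 and -0.51 for Ccl21, against -5.77 and -3.93 with the clusters apart. With k-means on the contractile and pericyte genes alone they were -0.72 and -0.81. Vtn also lost its 2-fold difference on merging, at -0.88 against -2.11.

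Of 28 matrix genes 4 were higher and 9 lower (median log2 ratio -0.44). Col4a1, a collagen IV chain of the basement membrane, was lower at 732 against 2518 CPM (3.44-fold lower, 3.02 to 3.93), though k-means on the listed genes gave a log2 difference of -0.94 in place of -1.78. Chains of collagens VI and III were also lower, with Col6a1 at 95.4 against 1108 CPM and Col3a1 at 213 against 1626 CPM. Elastin (Eln), which fills the walls of arteries, was at 297 against 17.6 CPM (16.9-fold higher, 9.48 to 32.8), with a similar level in the Ncam1-led cells described below. The laminin chain gene Lama5 was at 163 against 10.8 CPM. Laminin genes thus went both ways, since Lama2 was at 53.3 against 433 CPM.

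Of 19 transcription factors 6 were higher in smooth-muscle-like cells and 2 lower. Mef2c was at 1058 against 448 CPM, Tbx2 at 258 against 77.1 CPM and Tbx3 at 121 against 31.1 CPM, and Meox2, of the mesoderm, was lower at 89.8 against 384 CPM. In the Notch list 2 of 9 were higher and 1 lower, with Nrarp at 356 against 100 CPM, Hes1 at 224 against 104 CPM and Rbpj, the DNA-binding partner of the receptors, lower at 61.7 against 137 CPM. Pdgfa was at 679 against 199 CPM. Endothelial genes, a sum that in the whole label came mostly from Esam, were at 564 CPM in smooth-muscle-like and 326 CPM in pericyte-like cells. Immediate-early genes summed to 16931 and 12941 CPM, and the part of both sums in these differences was not tested.

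**Figure D3:**
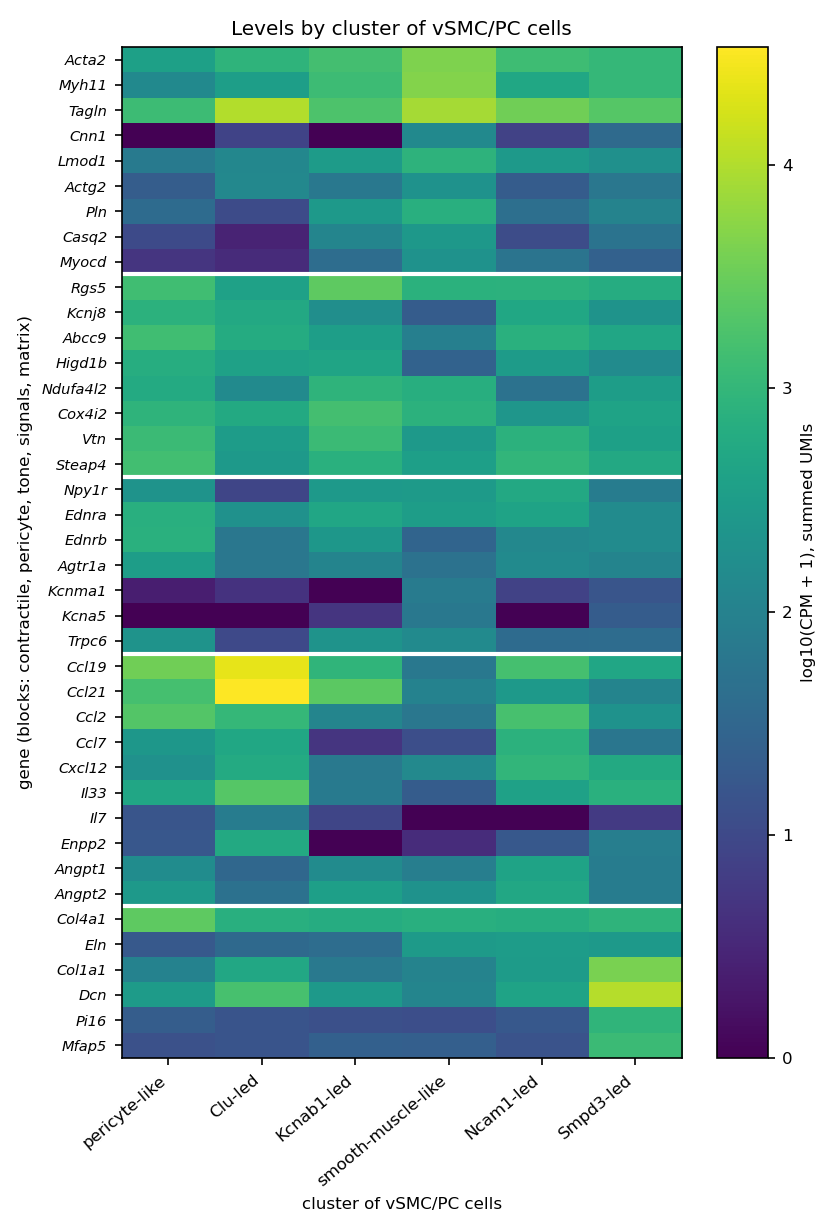
Level of listed genes (rows, in blocks of contractile, pericyte, tone, signal and matrix genes) in the 6 clusters (columns) as log10 of CPM + 1, to be read along rows. Myh11 ran from 139 CPM in pericyte-like to 4981 CPM in smooth-muscle-like cells, and Ccl19 from 64.5 CPM there to 23234 CPM in the Clu-led cluster.

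Genes outside the lists were used to cluster and so describe these 2 clusters. In smooth-muscle-like cells Map3k7cl was at 1055 CPM against 2 UMIs (ratio 390, 107 to 3232), Cym at 382 CPM against 0 UMIs, S100a4 at 1824 against 36.5 CPM and Sncg at 3645 against 145 CPM. In pericyte-like cells Rgs16, a relative of Rgs5, was at 908 against 14.03 CPM and S100a5 at 216 CPM against 0 UMIs.

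Most of the Ccl19 and Ccl21 of the label lay in the Clu-led cluster. It held 87.9% of the Ccl19 UMIs, 95.1% of Ccl21, 71.8% of Il33 and 90.0% of Enpp2, with 33.4% of all UMIs and 25.2% of the cells. Of the Ccl2 UMIs it held 34.9%, and the pericyte-like cluster 45.2%. Per cell its Ccl19 ran from 235 to 109770 CPM (median 17784), against medians of 8081 CPM in TMC4, 641 CPM in pericyte-like and 0 CPM in smooth-muscle-like cells. Without this cluster, a comparison added after the data were seen, Ccl19 in vSMC/PC was at 1606 CPM and its log2 ratio to TMC4 moved from -0.63 to -3.08. Likewise the ratio of Ccl21 to TMC4 moved from -0.89 to -4.67, and that of Tagln changed sign, from 0.38 to -0.46.

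Among the clusters, the Clu-led one had the smallest shares of genes past 2-fold against TMC4, with 2.64% higher and 7.37% lower of 2118 genes at 100 CPM or more. It also held the most UMIs, 1126169, where the Kcnab1-led cluster held 251535. The part of such depth in the shares of the clusters was not tested. Of 13 contractile genes 9 were higher in it and 0 lower, of 16 pericyte genes 4 were higher and 1 lower, and of 16 chemokines 0 were higher and 2 lower. Acta2 was at 867 CPM and Myh11 at 347 CPM, against 119 and 38.9 CPM in TMC4. Of 7 genes of the TMC4 list 3 were lower and 0 higher (median log2 ratio -0.42). Ncam2 was at 7.99 CPM in Clu-led cells against 230 CPM in TMC4, and Alk, a receptor kinase, at 29.3 against 174 CPM. These cells summed to 57.7 CPM of endothelial and 6634 CPM of fibroblast genes, close to 60.8 and 7633 CPM in TMC4.

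For comparison, 23.9% of 2573 genes were higher and 26.5% lower in smooth-muscle-like cells than in TMC4, and 14.2% higher and 14.2% lower of 2416 in pericyte-like cells. In these 2 clusters 15 of 18 and 6 of 11 contractile genes were higher, with 1 lower in each. Of 16 and 17 chemokines 12 and 8 were lower and 1 and 3 higher.

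**Figure D4:**
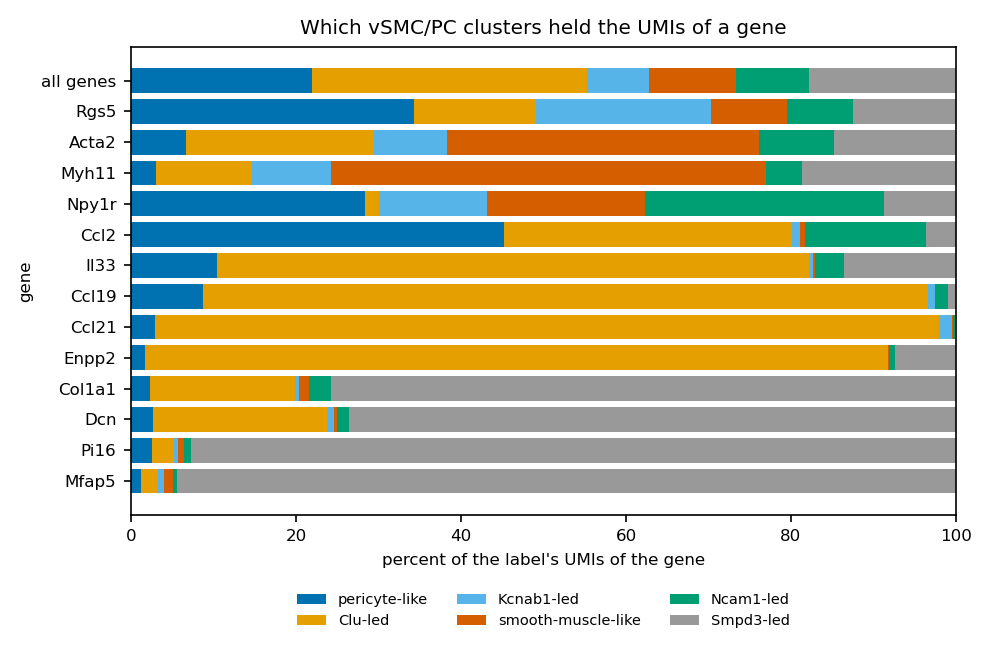
Stacked bars give the percent of the UMIs of each gene in the label that lay in each of the 6 clusters, beside the percent of all UMIs. The Clu-led cluster held 87.9% of Ccl19 and the smooth-muscle-like cluster 52.7% of Myh11, with 33.4% and 10.6% of all UMIs.

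The Kcnab1-led cells combined both lists. Rgs5 was at 2548 CPM, Notch3 at 990 CPM, Vtn at 1201 CPM, Myh11 at 1276 CPM and Acta2 at 1491 CPM, while Kcnj8 was at 171 CPM. Against TMC4, where 20.5% of 2525 genes were higher and 20.4% lower, 9 of 14 contractile genes were higher and 2 lower, 13 of 20 pericyte genes higher and 2 lower, and 6 of 7 Notch genes higher and 0 lower. The cluster held 21.2% of the Rgs5 UMIs with 7.46% of all UMIs. At a resolution of 0.25 it joined the smooth-muscle-like cells in 1 group of 112 cells, and with 30 principal components 55 of its 58 cells fell in 1 group with them.

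In the Ncam1-led cells, all 7 vasoactive receptors compared were higher than in TMC4 (18.8% of 2494 genes were higher and 19.4% lower). Npy1r was at 536 CPM, and 59.2% of thinned cells had a UMI of it, against 0.877% in the Clu-led cluster and 0% of capFb cells (unthinned 81.6%, 4.39% and 0%). Angpt2 was at 519 CPM, Angpt1 at 428 CPM and Eln at 317 CPM, all the highest of the 6 clusters, and Cspg4 was at 0 UMIs. For Eln the level was close to that of the smooth-muscle-like cells. Immediate-early genes summed to 17505 CPM there, the highest of the clusters, with 12 of 17 higher and 1 lower than in TMC4, and their part in these levels was not tested.

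Fibroblast genes marked the Smpd3-led cells, with 10 of 12 higher than in TMC4 and 0 lower (13.5% of 2345 genes were higher and 13.5% lower). Dcn, decorin, was at 10558 CPM and Col1a1 at 4228 CPM, against 112 to 1623 CPM and 67.6 to 526 CPM in the other 5 clusters. This cluster held 92.8% of the Pi16 and 94.4% of the Mfap5 UMIs, genes of adventitial fibroblasts, with 17.9% of all UMIs. Acta2 was at 1049 CPM and Myh11 at 1046 CPM in the same cells, whose fibroblast list summed to 33471 CPM against 69132 CPM in capFb. Their median depth of 13219 UMIs was the highest of the clusters, no doublet caller was run, and the part of depth and of doublets was not tested. Without these cells, an alternative added after the data were seen, the log2 ratio of Dcn to TMC4 turned from 0.34 to -1.29.

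In the section, vSMC/PC was the first label of 395 of the 592087 labelled bins of 10 µm (0.0667%, 0.0603 to 0.0736). Labels of bins were inferred by the authors by RCTD, which splits the RNA of a bin over reference types, and a bin can hold parts of several cells. The share was highest in mEFA, one of the 2 medullary regions, at 45 of 19354 bins (0.233%, 0.170 to 0.311). It was 0.151% in the capsular region (186 of 123373 bins, 0.130 to 0.174), 0.117% in mECA, the other medullary region (47 of 40180, 0.0860 to 0.156), and 0.0286% in the cortex (117 of 409180, 0.0236 to 0.0343). The counting interval of the cortex lay below all others, and that of mEFA lay above mECA but overlapped the capsular one. In segmented cell bins the cortex was at 0.0544%.

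Endothelial labels lay close to these bins. Neighbours within 30 µm were counted for each vSMC/PC bin in turn, so a bin near several of them was counted repeatedly. Of 10968 neighbours counted this way, 413 (3.77%) were endothelial, where the same regions would give 0.286%, a ratio of 13.2. Arterial endothelium had a ratio of 18.5, capillary endothelium 16.0 and venous endothelium 8.76, on 183, 93 and 137 such neighbours, which are not distinct bins. TMC4 was at 0.410% against 0.0854%, a ratio of 4.81 on 45 such neighbours. The same ratio for pooled endothelium was 19.6 within 15 µm, 6.57 within 60 µm, 6.84 in cell bins and 2.61 when the label in any place of the bin was counted.

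The assignments were weak and rested on few UMIs. The first label had a median weight of 0.430 and at most 0.729, its bins had a median of 414 UMIs against 326 in all bins, and 391 of 395 carried a second label. That label was most often a thymocyte label, DN in 106 and DP in 102 bins, and was endothelial or TMC4 in 0. Of the 343433 bins given 1 type, 4 were vSMC/PC. Bins that touch share tissue and captured RNA, which makes the intervals too narrow, and smooth muscle and pericyte cells cannot be told apart in the section because the reference joins them in 1 label.

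**Figure D5:**
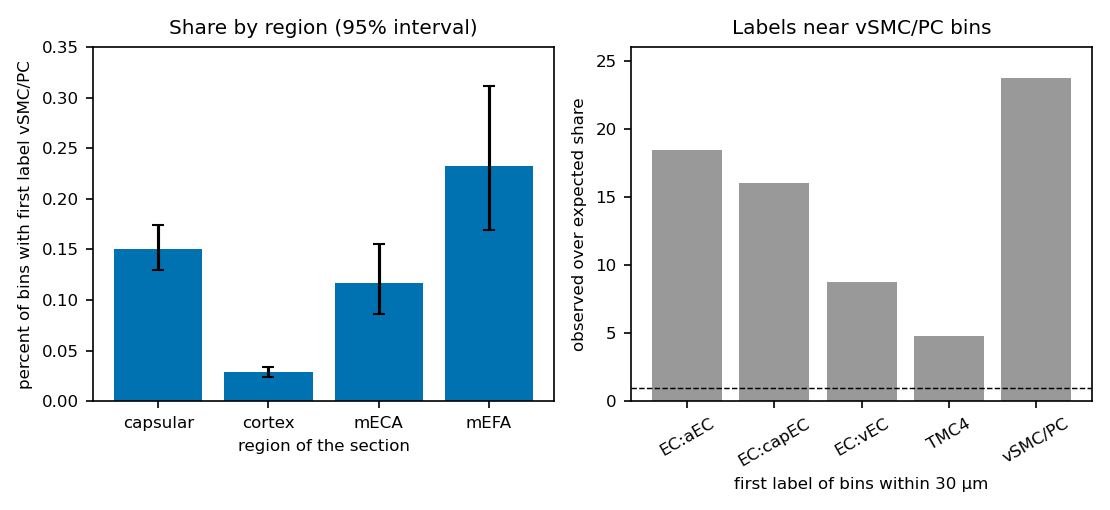
Left, percent of labelled bins in each region whose first label is vSMC/PC, with 95% counting intervals. Right, share of each label within 30 µm of vSMC/PC bins over the share expected from the same regions, with a dashed line at 1: every ratio lies above it, from 4.81 for TMC4 to 23.7 for vSMC/PC itself.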

How the data were processed

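UMI counts per gene and barcode of the stromal and thymocyte libraries were deposited by the authors and made with Cell Ranger 8.0.0 and Seurat 5.3.0 on build mRatBN7.2, per the submitters' processing notes. The percent of mitochondrial UMIs per cell and the RCTD weights per bin, which are fractions, were deposited by the authors. The members and lists were chosen with earlier results of these data known, and the TMC4 list was chosen from them.

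UMIs were summed per label and given as CPM with exact Poisson intervals, and shares with Clopper-Pearson intervals (95%, counting error only). Genes with at least 50 UMIs over both groups were compared (at least 100 CPM for clusters against TMC4), and called means at least 2-fold. A group at 0 was set at a floor of 3 UMIs, and rankings by ratio set every group at no less than 3 UMIs. The 26 lists hold 385 genes, of which 383 were measured.

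Cells were clustered with Leiden (2000 variable genes after removing listed genes, 15 components, 15 neighbours, resolution 0.5, seed 7), and 2 clusters were named from marker lists. Doublets were not called or removed here. Named genes are listed genes with at least 20 UMIs in the groups compared, or genes with the largest ratios, 8 per direction for labels and 12 for clusters. Genes named by ratio needed 100 UMIs and a UMI in 25% of cells of the higher group, and the 12 leading genes needed the same in vSMC/PC. Alternatives were filters on cells, thinning to 2000 UMIs, other totals (without 141 mitochondrial, ribosomal and haemoglobin genes), UMI minimums, clusterings, bins and radii. Leaving out the Clu-led or Smpd3-led cluster and the CArG-like box were chosen after seeing the data. The scripts were tested on simulated data. Python 3.11.15, NumPy 2.4.6, SciPy 1.17.1, pandas 2.3.3, scikit-learn 1.9.0, igraph 0.11.9, leidenalg 0.10.2 and matplotlib 3.10.9 were used.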

Additional observations from a re-analysis of the deposited data

Results flagged for a closer look

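Myh11 was found in barcodes of the stromal library that the authors left without an annotation and that no comparison above uses. These 2934 barcodes held 315 Myh11 UMIs of 8663291, or 36.4 CPM (32.5 to 40.6), where a count of 0 would allow 0.346 CPM. The level was 8.71 CPM in the annotated stromal cells of other labels and 5.15 CPM in the thymocyte library. Of the 315 UMIs, 134 were in 8 barcodes with at least 10 each, and the highest barcode had 31.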

How the results depend on the processing

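No paired analysis was possible because there was a single sample per group. Of 672 values of single genes under the alternatives, 510 moved by less than their counting interval, 161 moved further and 1, at least 2-fold as reported, changed sign. It was Ccl21 against endothelium, at a log2 ratio of -0.76 without the Clu-led cluster, chosen after seeing the data, against 3.02 with it. Values under 2-fold that changed sign were Tagln (-0.46 without the Clu-led cluster) and Dcn (-1.29 without the Smpd3-led cluster, -0.25 as the mean of the cells' CPM, -0.22 thinned) against TMC4, Mef2c against endothelium (-0.12 to 0.31 without the Clu-led cluster) and Rgs5 between smooth-muscle-like and pericyte-like cells (-0.85 to 0.11 at resolution 0.25). Of 142 counts and shares, 99 stayed within their limit and 43 moved; the cause was not tested except that other UMI minimums change the number of genes compared. Thinning to 2000 UMIs gave 877 genes higher than in endothelium, and 138 higher and 250 lower in smooth-muscle-like than in pericyte-like cells. At least 10 UMIs gave 1520 genes higher than in TMC4, 2328 higher than in endothelium, and 926 higher and 1667 lower between these clusters. At least 200 UMIs gave 484 higher and 751 lower than in TMC4, 752 and 1100 for endothelium, and 89 and 168 between the clusters. Resolution 0.25 merged the 54 smooth-muscle-like and 58 Kcnab1-led cells into 112. With 30 components a group of 112 held 54 and 55 of them, and 431 genes were lower. Resolution 1.0 left 84 pericyte-like and 62 Clu-led cells, and k-means on the listed genes gave 2 groups, of 348 and 104 cells. In the section, cell bins gave 0.0544% in the cortex, 0.0905% in all, and ratios of 6.84 for endothelium and 2.86 for TMC4. The label in any place gave 0.856% (capsular), 0.402% (cortex), 1.00% (mECA), 2.35% (mEFA) and 0.601% (all), with ratios of 2.61 and 2.03. Ratios were 19.6 and 8.23 at 15 µm and 6.57 and 2.66 at 60 µm, and bins given 1 type gave 0.0012% in all. Clusters of 42 to 135 cells and genes at a few UMIs limit the depth of these comparisons.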

Other observations

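Fabp4, a fatty acid carrier of fat cells and capillary endothelium, was at 1034 CPM in vSMC/PC, 11.5 CPM in TMC4 and 7487 CPM in endothelium, and by cluster it was at 3036 CPM in smooth-muscle-like, 1019 in pericyte-like and 64.8 in Clu-led cells. Pparg, the regulator of fat cell genes, was at 84.5 CPM against 1.12 CPM in TMC4, while the fat cell hormones Adipoq and Lep were at 0 UMIs. Endothelial genes summed to 564, 326 and 57.7 CPM in those 3 clusters, and their part in the Fabp4 levels was not tested. In the whole label most of that sum came from Esam.

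Of 12 genes of the MHC list compared with TMC4, 4 were higher and 4 lower (median log2 ratio -0.69, all genes -0.06). Over all genes compared with TMC4, 7.24% were higher and 10.3% lower. Those lower belong to the class I route, with Nlrc5, its regulator, at 9.19 against 54.0 CPM and Tap2, a peptide transporter, at 55.2 against 167 CPM. Those higher are class II genes at low levels, with RT1-Db1 at 28.8 against 9.78 CPM and RT1-Da at 19.0 against 7.87 CPM. Within the label, RT1-Db1 was at 121 CPM in smooth-muscle-like and 12.2 CPM in pericyte-like cells, and Cd74, the class II chaperone, at 157 and 25.7 CPM. In the interferon list 1 of 12 genes was higher than in TMC4, near the share over all genes, and 3 were lower. Among those lower were Mx1 at 79.2 against 198 CPM and Oas1a at 19.9 against 40.2 CPM.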
